A study of Mus musculus with 2 samples.

Results

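CD8 T cells of mouse liver were described by single-cell RNA sequencing of nonparenchymal cells (NPCs), the liver cells left after hepatocytes are removed. The members were 338 of 13603 kept cells, 225 of 7471 in the normal library and 113 of 6132 in the fibrosis library. A kept cell had under 10% of its unique molecular identifiers (UMIs, which count captured RNA molecules) in mitochondrial genes and over 200 genes. A member had at least 2 UMIs of Cd3d, Cd3e and Cd3g together, at least 1 UMI of Cd8a or Cd8b1, no UMI of Ncr1, Klra8 or Klra4 (NK cell genes), at most 1 UMI of Cd79a (a B cell gene) and under 25 UMIs of Kdr, Ptprb and Flt4 (endothelial genes) per 10000. The members were thus chosen by measured counts of these genes, so the levels of these 12 genes are a description of the choice and not a result.

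The study compared a normal liver, labelled as in the quiescent state, with a liver made fibrotic by CCl4, a solvent that injures hepatocytes. Male C57BL/6 mice of 8 weeks were used, 1 for each condition. The fibrosis mouse received CCl4 at 15% in olive oil, 0.6 µl per g body weight, by 2 intraperitoneal injections a week for 6 weeks, and its liver was taken 48 h after the last one, while the control mouse received olive oil alone on the same schedule. Livers were perfused with collagenase, and NPCs were collected by low-speed and density-gradient centrifugation with no sort for lymphocytes. With 1 library from 1 mouse per condition, no test between conditions was possible and no p-value is given. Each difference below is a difference between 2 mice, and all intervals (exact, 95%) cover counting error only.

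CD8 T cells recognise peptides on MHC class I with an alpha-beta receptor that is helped by CD8, a dimer of CD8α and CD8β or of CD8α alone. Naive cells circulate through lymph nodes and keep the transcription factors TCF1 (Tcf7) and LEF1 (Lef1). Effector cells make granzymes, perforin, interferon-γ and chemokines such as CCL5, and the normal liver is known to hold many antigen-experienced and resident cells of this kind.

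The bases upstream of 4 effector genes are printed because their levels had the lowest ratios of fibrosis to normal in the cytotoxic effector list, between 0.151 and 0.195 (values below). Gzmb and Gzma encode granzymes, the proteases of cytotoxic granules, Xcl1 encodes a chemokine that attracts cross-presenting dendritic cells, and Ifng encodes interferon-γ. Each line gives the 250 bases before the RefSeq start (GRCm38.p6), 5′ to 3′, with the RUNX core TGTGGT, or ACCACA where it lies on the other strand, in capitals.
Gzmb (chr14:56262335-56262584, minus strand): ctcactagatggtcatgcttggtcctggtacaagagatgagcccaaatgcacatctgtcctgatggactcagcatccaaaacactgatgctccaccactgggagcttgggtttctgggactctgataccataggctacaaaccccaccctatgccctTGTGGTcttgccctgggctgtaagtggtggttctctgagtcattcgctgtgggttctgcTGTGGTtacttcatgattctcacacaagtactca
Gzma (chr13:113100982-113101231, minus strand): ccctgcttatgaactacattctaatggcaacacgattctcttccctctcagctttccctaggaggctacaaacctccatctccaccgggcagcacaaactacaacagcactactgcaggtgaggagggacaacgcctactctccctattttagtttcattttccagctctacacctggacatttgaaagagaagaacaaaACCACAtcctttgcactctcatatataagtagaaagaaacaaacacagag
Xcl1 (chr1:164935523-164935772, minus strand): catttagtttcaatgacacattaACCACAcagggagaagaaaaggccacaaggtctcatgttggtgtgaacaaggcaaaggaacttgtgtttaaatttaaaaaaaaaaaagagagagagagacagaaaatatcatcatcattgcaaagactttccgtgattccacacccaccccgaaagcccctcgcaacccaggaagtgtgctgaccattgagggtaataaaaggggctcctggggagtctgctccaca
Ifng (chr10:118440796-118441045, plus strand): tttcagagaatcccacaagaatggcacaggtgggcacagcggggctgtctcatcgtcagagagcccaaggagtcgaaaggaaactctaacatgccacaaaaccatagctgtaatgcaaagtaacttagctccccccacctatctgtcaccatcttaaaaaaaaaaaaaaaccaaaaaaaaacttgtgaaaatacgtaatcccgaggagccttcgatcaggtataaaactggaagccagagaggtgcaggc
The RUNX core, the letters bound by RUNX factors such as Runx3 of CD8 T cells, was found at 93 and 34 bases before the start of Gzmb, at 50 before that of Gzma and at 227 before that of Xcl1. It was absent from the 250 bases of Ifng. The RefSeq start of Gzmb lies outside the GENCODE gene, so its window may not touch the start used in these cells. Of 20 genes of the cytotoxic effector list 15 were matched to the RefSeq table, and 8 of these (53.3%) held TGTGGT on either strand, against 14.2% of all 27025 genes in the table. Of 16 matched genes of the naive list 1 held it. The T-box core AGGTGT was held by 5 of the 15 effector genes, 1 of the 16 naive genes and 12.04% of all genes, and the TCF/LEF core CTTTGA by 1, 1 and 14.1%. The T-box and RUNX cores can share the letters TGT, and a match is a description of the sequence, not evidence of binding.

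Trac marked the members as T cells, while the CD8 label rests on the rule's own genes. Trac, the constant part of the receptor alpha chain, was not used by the rule. Its level was 5.64 UMIs per 10000 (5.21 to 6.09) in normal and 4.82 (4.25 to 5.44) in fibrosis, against 0.0655 and 0.0727 in B cells. T cells without a Cd8 UMI had 5.71 and 4.09, so Trac does not set the members apart from them. A UMI of Trac was found in 82.7% of normal and 74.3% of fibrosis members, and one of Trac, Trbc1 or Trbc2 in 98.7% and 98.2%. NK cells carried Trbc1 as well, at 4.31 and 3.95 UMIs per 10000, but Trac only at 0.0660 and 0.0860. The rule genes stood at 5.61 and 4.95 UMIs per 10000 for Cd8a, 3.90 and 4.87 for Cd8b1, 4.29 and 3.70 for Cd3e, and 6.65 and 3.79 for Cd3g. Cd8a and Cd8b1 are neighbours on mouse chromosome 6 (GRCm38, chr6:71373427-71379173 and chr6:71322788-71337494, both on the plus strand). Cd4, which marks helper T cells, had a UMI in 17 normal and 5 fibrosis members.

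The lower limit of the Cd3 criterion was passed by 20 normal and 25 fibrosis members with exactly 2 UMIs, and 29 and 34 cells with 1 UMI met all other criteria. In normal the members at the limit had 5.29 Trac UMIs per 10000 and the cells below it 1.08, with 58.0 of Cd74 and 10.3 of Siglech, a gene of plasmacytoid dendritic cells. The normal members at the limit also carried Siglech, at 5.66, against 0.645 in members with at least 3 Cd3 UMIs. In fibrosis the Trac levels at and below the limit were 3.86 and 2.81, and Siglech stood at 0.113 in the members at the limit. The highest endothelial level of a member was 24.9 UMIs per 10000 in normal and 24.7 in fibrosis, and 15 and 10 cells were kept out by that criterion alone. A further 55 normal and 18 fibrosis cells met every criterion except the mitochondrial one.

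Members had a median of 4018 UMIs in normal (996 to 39896) and 3137 in fibrosis (1072 to 50242), and 1140922 and 543816 UMIs in sum. RNA of other cells was present in every lymphocyte class and differed between the libraries, as measured in B cells, which should lack most of it. The 12 hepatocyte genes summed to 275 UMIs per 10000 in normal and 34.3 in fibrosis CD8 T cells (248.9 and 27.0 in B cells), the 12 macrophage genes to 10.9 and 41.1 (11.9 and 100.4), the 12 matrix genes to 7.42 and 41.7 (4.49 and 62.4) and the 12 endothelial genes to 13.6 and 23.9 (13.7 and 19.99). The 6 erythroid genes summed to 95.7 in normal and 0.717 in fibrosis (43.9 and 3.41), and 1 normal cell held 36.5% of the UMIs of Hbb-bs, the most abundant of them. The matrix sums were uneven over cells too, and 1 fibrosis member held 94.2% of the UMIs of Tagln, a gene of that list. At least 3 UMIs of C1qa, C1qb, C1qc, Cd5l and Lyz2 were seen in 23.6% of normal and 94.7% of fibrosis members. The part of this RNA in the results below was not tested, and B cell values stand beside several of them. No member's barcode was among the 15 that the libraries shared.

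CD8 T cells were a smaller share of all kept cells in the fibrosis library and a larger share of its T cells. They made up 3.01% of kept cells in normal (2.64 to 3.42) and 1.84% in fibrosis (1.52 to 2.21). All T cells, members and T cells without a Cd8 UMI together, made up 9.16% (8.51 to 9.83) and 4.44% (3.93 to 4.98). Among these T cells the members were 225 of 684, 32.9% (29.4 to 36.6), in normal and 113 of 272, 41.5% (35.6 to 47.7), in fibrosis, and the intervals overlapped. The intervals of this share did not overlap under 3 of 9 alternatives (at least 2 Cd8 UMIs, only members with a Cd8b1 UMI, without gamma-delta constant RNA), and those of the share of kept cells overlapped under 1 of 9, only members with a Cd8b1 UMI (2.05% and 1.5003%). Among T, NK and B cells they were 16.0% (14.2 to 18.1) and 15.7% (13.1 to 18.6). A change in the number of these cells and a change in their recovery cannot be told apart. The CD8 share of T cells changed order at a 5% mitochondrial limit, which left 30 and 10 members (38.5% and 28.6%). The share of kept cells was 1.62% and 0.587% at that limit. It was 1.10% and 0.489% when the rule was applied to cells thinned at random to 1000 UMIs each.

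The share of effector-state cells among CD8 T cells was lower in the fibrosis library. A cell was called naive-state with at least 1 UMI of Tcf7 or Lef1 and none of Ccl5 or Gzmb, and effector-state in the reverse case, after each cell was thinned to 1000 UMIs, which left out 1 normal cell. Naive-state cells were 37 of 224 in normal, 16.5% (11.9 to 22.0), and 30 of 113 in fibrosis, 26.5% (18.7 to 35.7). Effector-state cells were 126 of 224, 56.3% (49.5 to 62.8), and 44 of 113, 38.9% (29.9 to 48.6). The intervals overlapped for the naive state, also under all 13 alternatives. For the effector state they missed each other narrowly, with a lower limit of 49.5 in normal and an upper limit of 48.6 in fibrosis, and they overlapped under 9 of 13 alternatives, while the share was lower in fibrosis under all 13. Among members with a Cd8b1 UMI, an alternative chosen after seeing the data, naive-state cells were 23.7% (17.2 to 31.3) and 29.3% (20.3 to 39.8) and effector-state cells 47.4% (39.2 to 55.6) and 34.8% (25.1 to 45.4), and both pairs of intervals overlapped. Without members with gamma-delta constant RNA, the effector-state shares were 49.7% (41.9 to 57.5) and 36.5% (26.9 to 46.9). The intervals also overlapped with at least 2 Cd8 UMIs, a 5% mitochondrial limit, the rule on thinned cells, no thinning, and without cycling members, members of the most UMIs or cells of the highest Scrublet scores. The 5% mitochondrial limit moved the shares most, to 3.33% and 10.0% naive-state and 83.3% and 70.0% effector-state cells. Over all members, cells with RNA of both kinds were 11.6% and 20.4%, and cells with neither 15.6% and 14.2%.

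High counts of effector RNA were also less frequent in the fibrosis library. At least 5 UMIs of Ccl5 and Gzmb were found in 49.6% of normal (42.8 to 56.3) and 20.4% of fibrosis CD8 T cells, whereas exactly 1 UMI was found in 3.57% and 12.4%. B cells, which should lack these RNAs, give the background of such calls. Among them, with medians of 2953 and 2361 UMIs, 5.43% in normal and 1.63% in fibrosis met the effector definition and 0.822% and 1.91% the naive one. T cells without a Cd8 UMI were effector-state in 39.7% and 22.3% and naive-state in 17.9% and 30.6%, and NK cells were effector-state in 81.8% and 56.8%. Without thinning, at the unequal depths of the libraries, naive-state cells were 20.9% and 30.1% and effector-state cells 36.0% and 22.1%.

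**Figure D1:**
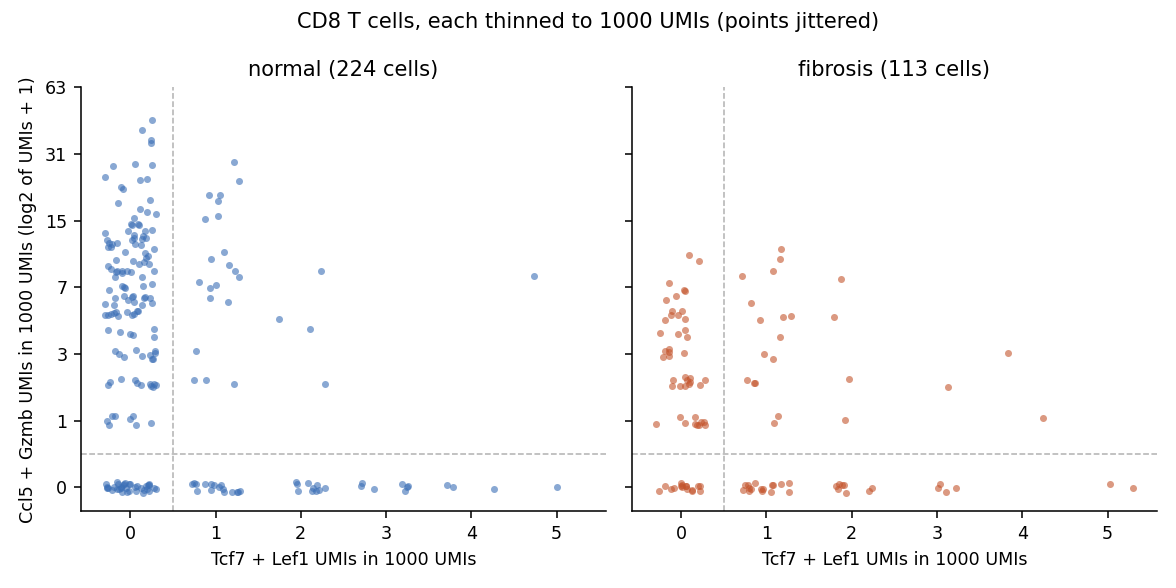
Each point is a CD8 T cell thinned to 1000 UMIs, with its Tcf7 and Lef1 UMIs on the x axis and its Ccl5 and Gzmb UMIs on the y axis (log2 of UMIs + 1, ticks in UMIs), in the normal (left, 224 cells) and fibrosis (right, 113 cells) library. Dashed lines separate 0 from 1 UMI; the normal library fills the upper left field with 126 cells, many with 5 or more effector UMIs, while the fibrosis library has 44 there.

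Cytotoxic effector genes were lower in CD8 T cells of the fibrosis library. The 20 genes of the list summed to 99.7 UMIs per 10000 in normal and 39.1 in fibrosis, a ratio of fibrosis to normal of 0.392 (0.374 to 0.411). Of the 15 genes that reached 0.5 UMIs per 10000 in either library, 5 were at most 0.5 times the normal level and 1 was at least 2 times as high, with a median ratio of 0.582. Over all 4881 genes tested in this way 7.03% were at most 0.5 times and 10.1% at least 2 times the normal level. The median ratio over all genes was 1.14 (0.19 on the log2 scale), so a gene that moved with the median gene stood slightly above 1. In numbers these were 494 higher and 343 lower genes, and after division by the median ratio 356 and 430; of the 15 effector genes none was then higher and 7 were lower.

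Ccl5, the most abundant gene of the list, stood at 49.0 UMIs per 10000 in normal (47.7 to 50.3) and 13.8 in fibrosis (12.8 to 14.8), a ratio of 0.281. Gzmb stood at 5.85 and 1.14, a ratio of 0.195 (0.148 to 0.253). Gzma was lower in the same range, with 8.34 and 1.38 and a ratio of 0.165 (0.129 to 0.209). The normal sums were spread over many cells, since the top cell held 3.06% of Ccl5, 5.55% of Gzmb and 8.93% of Gzma UMIs, whereas in fibrosis, with 62 UMIs of Gzmb and 75 of Gzma in all, it held 6.14% of Ccl5 and 16.1% of Gzmb UMIs, and 24% of those of Gzma. Ifng stood at 1.99 and 0.349, a ratio of 0.176 (0.104 to 0.281), and Xcl1 at 2.80 and 0.423, a ratio of 0.151 (0.0945 to 0.231). The sizes depended on which cells were members. The Gzma ratio ran from 0.0341 by the rule on thinned cells to 0.407 without gamma-delta constant RNA and 0.563 among members with a Cd8b1 UMI. The Ifng ratio was 0.278 by the rule on thinned cells and 0.504 (0.131 to 1.39) at a 5% mitochondrial limit, an interval that held 1. The Gzmb ratio was 0.334 among members with a Cd8b1 UMI, and the Xcl1 ratio 0.0451 (0.00542 to 0.166) by the rule on thinned cells.

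Other genes of the list had smaller differences. Nkg7, a protein of cytotoxic granules, stood at 9.24 and 4.87, a ratio of 0.527 (0.459 to 0.604), and Prf1, the pore-forming perforin, at 1.04 and 0.607, a ratio of 0.582 (0.383 to 0.862). Intervals that held 1 were found for Fasl, the death ligand, with 0.999 and 0.846 and a ratio of 0.847 (0.588 to 1.20), for Gzmk, a granzyme of memory cells, with 0.763 and 0.901 and 1.18 (0.815 to 1.70), and for the chemokine Ccl3 with a ratio of 0.962 (0.738 to 1.24). The gene above 2 was Cx3cr1, a receptor of circulating effector cells and also of macrophages, with 0.465 and 0.956 and a ratio of 2.06 (1.38 to 3.08); its level in B cells was 0.0374 and 1.34, and 1 fibrosis cell held 28.8% of its UMIs.

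NK cells and T cells without a Cd8 UMI also had lower sums of the list in fibrosis. The sums were 158 and 81.7 UMIs per 10000 in NK cells (a ratio of 0.518), 34.2 and 24.3 in T cells without a Cd8 UMI (0.711) and 8.15 and 8.08 in B cells. In T cells without a Cd8 UMI Xcl1 stood at 1.65 and 0.217, Ifng at 1.72 and 0.460, Ccl5 at 12.2 and 5.63 and Gzmb at 1.46 and 0.893. The lower levels of these genes were thus not particular to CD8 T cells. Some genes of the list were higher in fibrosis in T cells without a Cd8 UMI, among them Gzma with 0.610 and 1.73, Ccl4 with 0.906 and 3.55 and Ccl3 with 0.346 and 1.27. In CD8 T cells the ratio of Ccl4 was 0.636. The Ccl5 level of NK cells was 60.3 and 17.0, that of Ifng 2.42 and 0.745 and that of Xcl1 5.44 and 2.18. Some genes of the list were not lower in NK cells, such as Ccl3 with 4.07 and 4.21.

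**Figure D2:**
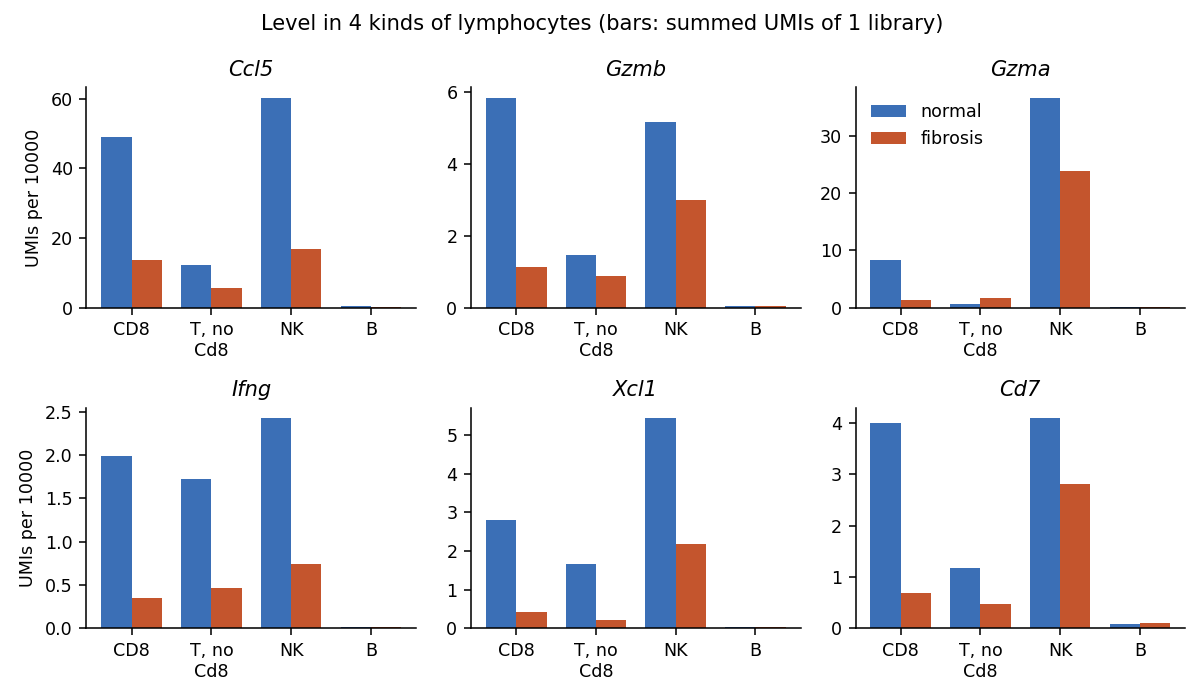
Bars give the level (UMIs per 10000) of Ccl5, Gzmb, Gzma, Ifng, Xcl1 and Cd7 in CD8 T cells, T cells without a Cd8 UMI, NK cells and B cells of the normal and fibrosis library; no error bars are drawn. In CD8 T cells all 6 genes are lower in fibrosis, Ccl5 at 13.8 against 49.0.

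Naive genes stood near or slightly above the median gene. The 20 genes summed to 45.6 and 52.7 UMIs per 10000, a ratio of 1.16 (1.10 to 1.21), and of the 18 tested genes none was at least 2 times as high or at most 0.5 times, against 10.1% and 7.03% of all genes, with a median ratio of 1.22. In B cells it was 34.7 and 38.5. Tcf7, used for the states, stood at 2.43 and 3.62, a ratio of 1.49 (1.24 to 1.80), and Lef1 at 1.86 and 2.004, a ratio of 1.08 (0.848 to 1.37). The Lef1 ratio depended on the members, with 1.83 (1.15 to 2.85) by the rule on thinned cells and 0.921 (0.716 to 1.18) among members with a Cd8b1 UMI. Satb1, a chromatin organiser, had 3.44 and 4.98 with a ratio of 1.45 (1.23 to 1.69), and Bach2, a repressor that holds back effector genes, 0.447 and 0.827 with 1.85 (1.21 to 2.82). Ccr7 and Il7r had intervals that held 1. Ccr7, the chemokine receptor for lymph node entry, had a ratio of 0.848 (0.641 to 1.11) and Il7r (the IL-7 receptor) 0.892 (0.753 to 1.05).

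**Figure D3:**
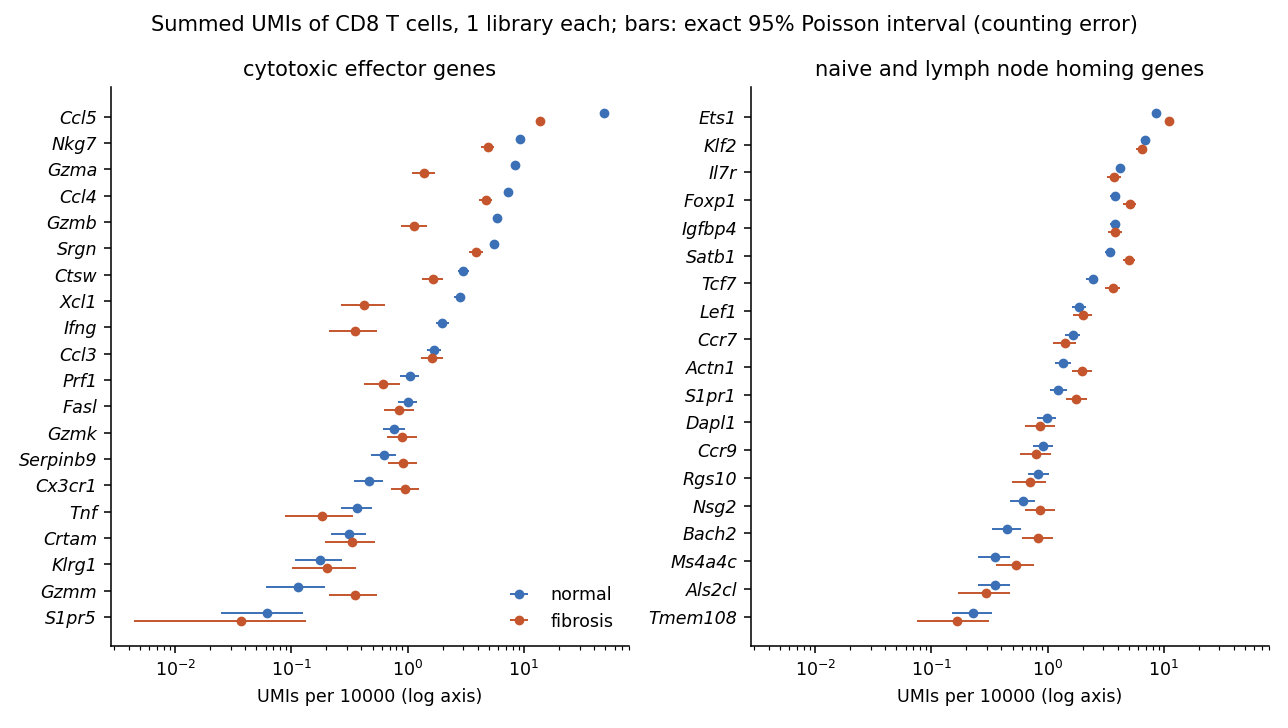
Points give the level (UMIs per 10000, log axis) of the 20 cytotoxic effector genes and of genes of the naive list in normal and fibrosis CD8 T cells, with exact 95% Poisson bars. Several effector genes, Ccl5, Gzma, Gzmb, Ifng and Xcl1 among them, lie lower in fibrosis, while the naive genes lie close together.

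Transcription factors of effector cells were mostly between 0.5 and 2 times the normal level. Of 8 tested factors 1 was at least 2 times as high and none at most 0.5 times, against 10.1% and 7.03% of all genes, and the list summed to 20.4 and 24.03 UMIs per 10000. Tbx21 (T-bet) stood at 0.824 and 0.644, a ratio of 0.781 (0.514 to 1.16), and Eomes, its relative in memory cells, at 0.657 and 0.993, a ratio of 1.51 (1.04 to 2.17). Runx3, which is needed for the CD8 lineage, stood at 2.31 and 1.77, a ratio of 0.766 (0.5998 to 0.971). The factor above 2 was Zeb2, with 1.54 and 3.75; in B cells it stood at 1.42 and 5.28, and 1 fibrosis cell held 25% of its UMIs.

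The share of members in which Cd8a was seen without Cd8b1 was 32.0% in normal and 18.6% in fibrosis, with overlapping intervals. Such cells were 72 of 225 in normal (26.0 to 38.5%) and 21 of 113 in fibrosis (11.9 to 27.0%), at median depths of 3926 and 3351 UMIs. A missing Cd8b1 UMI does not show that the chain was absent, since Cd8b1 averaged few UMIs a cell. Constant-region RNA of the gamma-delta receptor (Trdc, Tcrg-C1, Tcrg-C2 or Tcrg-C4) was seen in 55 normal members, 24.4% (19.0 to 30.6), and 17 fibrosis members, 15.04% (9.01 to 22.99), and after thinning in 12.5% (8.47 to 17.6) and 4.42% (1.45 to 10.02). Both pairs of intervals overlapped. Tcrg-C2 had 114 UMIs in normal and 15 in fibrosis, in 18.7% and 8.85% of cells, while Trdc had 1 UMI in normal and 8 in fibrosis, in 1 and 2 cells. The gamma chain is also transcribed in many alpha-beta cells, so these cells are not called gamma-delta T cells.

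In the normal library Gzma, Cd7 and Klra9 were higher in cells without a Cd8b1 UMI. These 3 list genes were picked after their values were seen. Gzma stood at 22.8 UMIs per 10000 in normal Cd8a-only cells and 2.46 in normal cells with Cd8b1, and at 1.35 and 1.38 in fibrosis. Cd7, an immunoglobulin-family receptor of T and NK cells, stood at 10.98 and 1.16 in normal and 3.38 and 0.255 in fibrosis. Klra9, an NK cell receptor of the Ly49 family, stood at 2.12 and 0.0987 in normal and 0.677 and 0.0638 in fibrosis. The Cd8a-only cells thus had the higher level of these 3 genes in normal, and of Cd7 and Klra9 in fibrosis. Tcf7 ran the other way in normal, with 1.27 in Cd8a-only cells and 2.90 in cells with Cd8b1. Trac was similar, with 6.44 and 5.31 in normal and 4.87 and 4.81 in fibrosis.

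The lower Ccl5, Gzmb, Ifng, Xcl1 and Cd7 levels of fibrosis were found in both kinds of cell. The ratio of fibrosis to normal for Ccl5 was 0.364 (0.313 to 0.423) in Cd8a-only cells and 0.296 (0.270 to 0.324) in cells with Cd8b1, and that for Gzmb 0.228 (0.145 to 0.343) and 0.334 (0.230 to 0.475). The Gzma ratio depended on the chain, with 0.0594 (0.0284 to 0.110) in Cd8a-only cells and 0.563 (0.419 to 0.749) in cells with Cd8b1. Ikzf2 (Helios, of unconventional and regulatory T cells) stood at 1.91 and 0.772 over all members, a ratio of 0.404 (0.283 to 0.564), but at 1.05 (0.499 to 2.13) in cells with Cd8b1 and 1.14 (0.626 to 2.04) in cells without gamma-delta constant RNA.

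Genes of the antigen receptor complex lay somewhat below the median gene, with a median ratio of 0.855 over 17 tested genes, none of them past 2 times in either direction, against 10.1% and 7.03% of all genes, and a sum of 56.2 and 49.0 UMIs per 10000. A UMI of a Trbv segment was seen in 30 normal and 6 fibrosis members, over 12 and 6 segments, so clonal make-up could not be read. The 12 helper and regulatory genes summed to 6.67 and 5.99 UMIs per 10000, a ratio of 0.899 (0.787 to 1.02).

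Single migration genes were higher or lower. Of 17 tested genes of liver residency and migration 4 were at least 2 times as high in fibrosis and 1 at most 0.5 times, against 10.1% and 7.03% of all genes, with a median ratio of 1.20. After division by the median ratio over all genes 2 were higher and 3 lower, so the balance depended on the scaling. Ccr2, a receptor for inflammatory chemokines, stood at 1.11 and 3.02, a ratio of 2.71 (2.14 to 3.44), with 0.240 and 0.834 in B cells. Cxcr4, the receptor for CXCL12, stood at 0.666 and 1.97, a ratio of 2.95 (2.18 to 4.02), with 3.03 and 3.75 in B cells, which express it. Itgb1, the integrin β1 chain, stood at 3.50 and 7.34, a ratio of 2.10 (1.82 to 2.42), with 1.43 and 4.83 in B cells and 21.6% of its fibrosis UMIs in 1 cell. The Itgb1 ratio was under 2 with at least 2 Cd8 UMIs (1.86), without members of the most UMIs (1.92), by the rule on thinned cells (1.68) and at a 5% mitochondrial limit, where its interval held 1 (1.27, 0.687 to 2.22). At that limit, with 30 normal and 10 fibrosis members, the ratios had wide intervals, 4.74 (1.89 to 11.7) for Ccr2 and 8.61 (2.84 to 28.8) for Cxcr4.

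Receptors linked to residence in the liver did not share a direction. Cxcr6, which holds T cells in the sinusoids, stood at 2.76 and 1.67, a ratio of 0.606 (0.475 to 0.768), and Itgae (CD103) at 0.447 and 0.129, below the level floor in both libraries. Cxcr3, for interferon-induced chemokines, stood at 1.06 and 0.625, a ratio of 0.590 (0.391 to 0.869). The calcium-binding S100a4 stood at 2.52 and 0.975, a ratio of 0.387 (0.283 to 0.521), and Cd69, a retention and activation marker, had a ratio of 1.25 (1.06 to 1.47).

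Memory and cytokine receptor genes summed to 28.7 and 35.7 UMIs per 10000, a ratio of 1.25 (1.18 to 1.32), with 1 of 13 tested genes at least 2 times as high and 1 at most 0.5 times, shares near the 10.1% and 7.03% of all genes. Bcl2, which protects from cell death, stood at 2.98 and 5.13, a ratio of 1.72 (1.46 to 2.02) that was 2.59 by the rule on thinned cells and 3.54 at a 5% mitochondrial limit, Ifngr1 at 3.02 and 5.70, a ratio of 1.89 (1.62 to 2.21), and Ly6c2, a surface marker of memory cells, at 4.13 and 6.62, a ratio of 1.604 (1.39 to 1.84). The higher gene was Il10ra, the IL-10 receptor, with a ratio of 2.26, and after division by the median ratio over all genes none was higher. In B cells Il10ra stood at 0.633 and 1.34 and Ifngr1 at 0.726 and 1.89, in the same order. Cd7 was the lower gene, with 4.01 and 0.680 and a ratio of 0.170 (0.118 to 0.238), which was 0.285 without gamma-delta constant RNA and 0.112 by the rule on thinned cells. The killer lectin-like receptors, which CD8 T cells share with NK cells, summed to 11.1 and 7.28 UMIs per 10000, a ratio of 0.658 (0.587 to 0.738). Klrk1 (NKG2D) had a ratio of 0.594 (0.445 to 0.784) and Klrc1 (NKG2A), an inhibitory receptor, one of 1.39 (1.03 to 1.85).

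Some genes of inhibition and exhaustion were scarce and others widely seen, and the list summed to 7.99 and 8.22 UMIs per 10000. Of 13 genes 6 were tested, with 2 at least 2 times as high and 1 at most 0.5 times, against 10.1% and 7.03% of all genes. Pdcd1 (PD-1) had 2 UMIs in normal and 9 in fibrosis, of which 1 cell held 55.6%, and 1.77% of fibrosis members had any. Cd38 had a UMI in 69.0% of fibrosis members and Nr4a2 in 43.6% of normal members. Entpd1 (CD39) and Cd38, nucleotide-degrading enzymes, stood at 0.280 and 1.01 and at 0.885 and 2.85, and in B cells at 0.365 and 1.001 and at 1.23 and 3.55; 1 fibrosis cell held 34.5% of the Entpd1 UMIs. Nr4a2, a factor induced by receptor signals, stood at 2.87 and 1.14, a ratio of 0.397 (0.297 to 0.522).

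Cell cycle genes had similar sums, with 38.2 and 38.1 UMIs per 10000 and a ratio of 0.998 (0.947 to 1.05). At least 2 UMIs of Mki67 and Top2a were found in 21 normal members, 9.33% (5.87 to 13.9), and 14 fibrosis members, 12.4% (6.94 to 19.9), and these cells had median depths of 8679 and 6060 UMIs. Type I interferon genes summed to 18.3 and 17.4 UMIs per 10000, a ratio of 0.952 (0.881 to 1.03).

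Some stress and early response genes differed between the libraries in CD8 T cells and, in the same direction, in B cells. Of 15 tested immediate early genes 4 were at least 2 times as high and none at most 0.5 times, against 10.1% and 7.03% of all genes. Dusp1, a phosphatase, stood at 4.60 and 11.2, and at 3.30 and 12.4 in B cells, and Nfkbia, an NF-κB inhibitor, at 2.17 and 6.55, and at 2.63 and 7.11 in B cells. The inducible chaperones Hspa1a and Hspa1b stood at 4.55 and 0.368 and at 7.63 and 0.423, ratios of 0.0808 (0.0490 to 0.126) and 0.0555 (0.0350 to 0.0838), and in B cells at 2.41 and 0.934 and at 2.91 and 0.783. The heat shock list as a whole summed to 74.97 and 74.0 UMIs per 10000. B2m, the light chain of MHC class I, stood at 35.5 and 54.9, a ratio of 1.55 (1.48 to 1.62), and at 24.1 and 39.6 in B cells. Of the 11 tested genes of MHC class I and antigen processing 4 were higher and 7 lower in fibrosis, none of them by 2 times, and the median ratio was 0.904.

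In both libraries effector-state cells carried more cytotoxic RNA and naive-state cells more RNA of the naive list. Gene levels by state used unthinned counts, with 47 naive-state and 81 effector-state cells in normal and 34 and 25 in fibrosis. Of 3994 genes tested 4.28% were at least 2 times as high in effector-state cells of both libraries and 2.55% at least 2 times as high in naive-state cells of both. The split itself used the counts of these cells, so the values describe the states and are not tests. Of 13 other tested cytotoxic genes 10 were on the effector side in both libraries and none on the naive side, and of 16 other tested naive genes 9 were on the naive side and none on the effector side.

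Killer lectin-like receptors, 6 of 6 tested, were on the effector side. Klre1, a receptor of the family, stood at 0.0885 and 3.06 UMIs per 10000 in the naive and effector state of normal and 0.0571 and 2.73 in fibrosis, with 2 and 1 UMIs behind the naive values. Tbx21 had ratios of effector to naive state of 32.1 in normal and 20.8 in fibrosis, and Ifng of 69.8 and 18.7, each with 1 UMI behind its naive values. Cd160, a receptor of activated cytotoxic cells, had at least 17.7 in normal and 17.7 in fibrosis, and Gzma 194 and at least 15.9, where a bound takes the state at 0 as 3 UMIs. Fgl2, a secreted fibrinogen-like protein, had at least 30.3 and 10.9. On the naive side Ccr7 had ratios of 0.0932 and 0.0310 and Dapl1, a marker of naive CD8 T cells, of 0.0179 and at most 0.160. Immediate early, MHC class I and receptor complex genes had none of 15, 11 and 16 tested genes past 2 times in both libraries.

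The cytotoxic list without Ccl5 and Gzmb summed in normal to 9.47 and 76.1 UMIs per 10000 in the naive and effector state, a ratio of 8.04 (6.99 to 9.28). In fibrosis it summed to 9.31 and 39.0 UMIs per 10000 in the naive and effector state, a ratio of 4.19 (3.46 to 5.09). The residency and migration list behaved in the same direction, with 20.1 and 74.1 UMIs per 10000 in the naive and effector state, a ratio of 3.68 (3.33 to 4.07), in normal, and 40.4 and 74.6 UMIs per 10000 in the naive and effector state, a ratio of 1.85 (1.66 to 2.06), in fibrosis. Background RNA was uneven between the states of fibrosis: matrix genes summed to 92.1 UMIs per 10000 in its naive-state and 16.3 in its effector-state cells, and its part in the naive-state values was not tested. In normal, 749 of the 847 matrix UMIs of members lay in cells with RNA of both kinds.

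**Figure D4:**
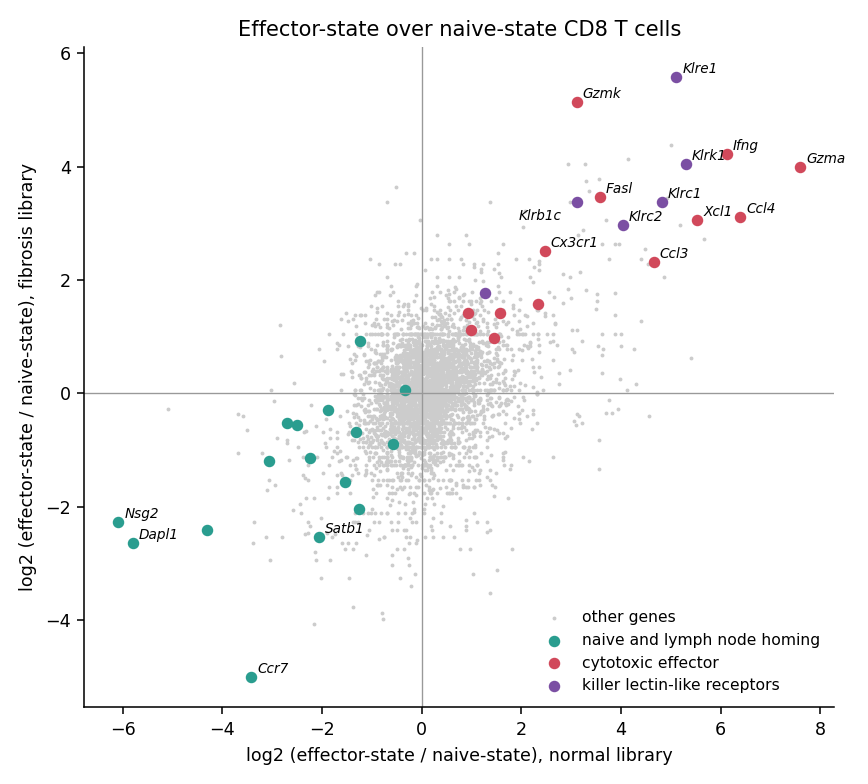
Each point is a gene, with its log2 ratio of effector-state to naive-state level in the normal library on the x axis and in the fibrosis library on the y axis; genes with 0 UMIs in a state are placed at the limit of 3 UMIs, and the 4 genes that define the states are left out. Cytotoxic genes and killer lectin-like receptors lie at the upper right and naive genes at the lower left.

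Within effector-state cells the sum of the cytotoxic list was lower in fibrosis, while within naive-state cells the interval of the cytotoxic sum held 1. The ratio of fibrosis to normal of the cytotoxic list without Ccl5 and Gzmb was 0.513 (0.456 to 0.575) in the effector state, 0.779 (0.714 to 0.849) in cells with RNA of both kinds and 0.983 (0.797 to 1.21) in the naive state. In effector-state cells Gzma stood at 17.2 and 2.73, a ratio of 0.159 (0.0999 to 0.240), Xcl1 at 6.15 and 0.949, a ratio of 0.154 (0.0658 to 0.309), and Nkg7 at 13.1 and 5.93, a ratio of 0.453 (0.332 to 0.607). Ccl5 and Gzmb, which chose these cells, stood at 70.9 and 26.9 and at 13.3 and 3.56. Cd8a-only cells were 39 of the 81 effector-state cells in normal, 48.1%, and 6 of 25 in fibrosis, 24%.

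Other genes were higher in fibrosis effector-state cells. Ccr2 stood at 1.503 and 4.51, a ratio of 3.00 (1.93 to 4.62), and Bcl2 at 2.68 and 5.34, a ratio of 1.99 (1.37 to 2.86). Eomes had 0.820 and 1.78 and a ratio of 2.17 (1.09 to 4.16), and Gzmk 1.15 and 2.02 and a ratio of 1.76 (0.938 to 3.15), an interval that held 1. In naive-state cells Ccr7 stood at 4.69 and 3.83, a ratio of 0.816 (0.591 to 1.12). Klf2, a factor that keeps cells in circulation, stood at 13.6 and 7.25, a ratio of 0.532 (0.429 to 0.656).

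Among all genes, the naming rule took those with the largest and smallest ratios that also differed from B cells of the same libraries by at least 1 on the log2 scale. Of the 12 genes with the largest ratio under the naming rule, 1 fibrosis cell held 82.8% of the Igfbp3 UMIs, 93.8% of those of Saa3 and 94.2% of those of Tagln. Nes, Ppp1r14a, Sod3 and Vcl each had over 50% of their UMIs in 1 cell. Broader were Spry4, an inhibitor of growth factor signalling, with 0.0614 and 0.515 and 7.14% in the top cell, and Cxcl10, an interferon-induced chemokine, with 0.254 and 1.5998, a UMI in 42.5% of fibrosis members and 27.6% in the top cell. Wnt2, Shank3 and Fzd4 had ratios of 5.45, 5.42 and 5.24, with 41.0%, 12.9% and 16.7% of their UMIs in the top cell. Among the 12 lowest, Mat1a, a hepatocyte enzyme, stood at 3.57 and 0.129 (in B cells at 2.88 and 0.235). Itih3, Slc38a3, Acaa1b, Nudt7, Cyp2c29, Gjb1, Onecut2 and Slc2a2 were lower too, as were Tstd1, with 71.9% in 1 cell, and Hspa1a and Hspa1b. All of these were also lower in B cells, with ratios from 0.0683 (Slc38a3) to 0.648 (Onecut2). The hepatocyte list was lower in both cell types as well, and the part of hepatocyte RNA in these values was not tested.

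**Figure D5:**
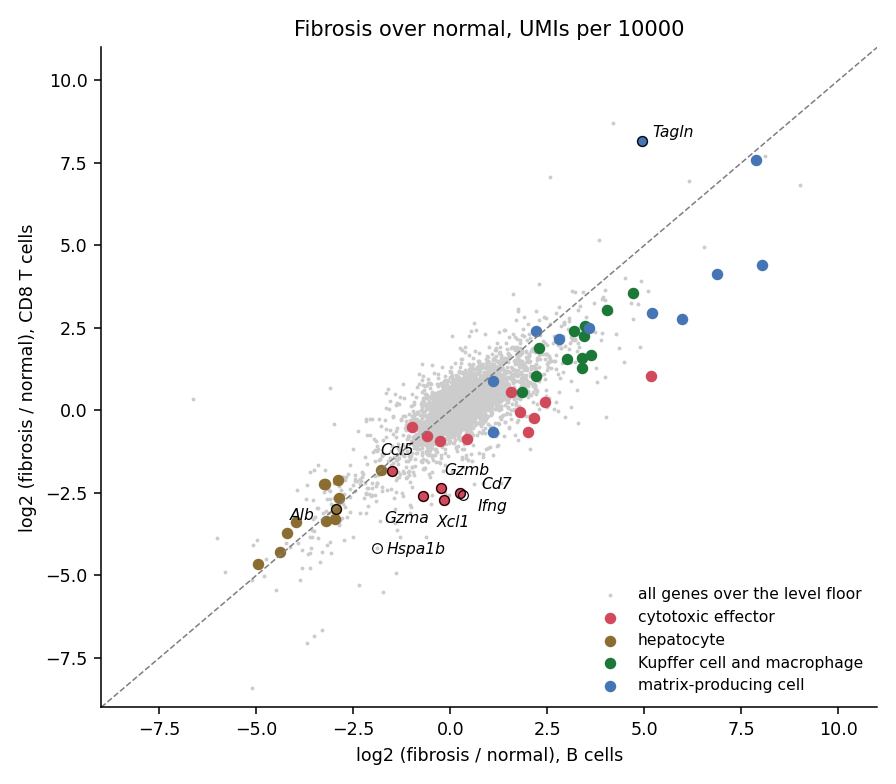
Each point is a tested gene, with its log2 ratio of fibrosis to normal in B cells on the x axis and in CD8 T cells on the y axis; the dashed diagonal marks equal ratios and black circles mark the labelled genes. Genes on the diagonal differ alike in both cell types, and Gzma, Gzmb, Xcl1 and Cd7 lie below it. Ccl5 lies only slightly below, with a ratio of 0.350 in B cells, at low levels of 0.399 and 0.140, and 0.281 in CD8 T cells.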

How the data were processed

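Libraries were made from liver NPCs with 10x Genomics 3′ chemistry, version 3. Per the methods, the authors aligned reads to mm10 and counted UMIs with Cell Ranger 3.0.1. The deposited tables hold raw UMI counts per gene and cell, with no normalization, for 8130 normal and 6437 fibrosis cells (44062632 and 53288463 UMIs); genes at 0 in a whole library are not listed and were taken as 0. No per-sample column was left out (0 columns not used). The methods state that doublets were excluded with Scrublet, and whether that was done before deposit was not tested. A rerun at an expected rate of 0.06 called 1 cell in each library, and the one called in normal was a member. No cell was removed as a doublet here.

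Samples were grouped by their labelled status. Cells were kept under 10% mitochondrial UMIs and over 200 genes. Levels are summed UMIs of a class of cells per 10000 UMIs, with exact 95% Poisson intervals, shares carry exact binomial (Clopper-Pearson) intervals, and ratios carry exact conditional intervals. Genes with at least 0.5 UMIs per 10000 in either library were compared, a difference was counted at 2 times or 0.5 times, and a class at 0 was taken as 3 UMIs for a bound. With 1 library per condition there is no test of the condition. T cells met the rule without its CD8 criterion. NK cells had at least 2 UMIs of Ncr1, Klra8 and Klra4 and no Cd3 UMI, and B cells at least 3 UMIs of Cd79a and Cd79b and no UMI of the Cd3, Cd8 or NK genes; the Cd79a (NK cells) and endothelial limits applied to them too.

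The members, gene lists and states were chosen with earlier results of these data known. Genes named beyond the lists were the 12 largest and 12 smallest ratios among genes with a UMI in at least 5% of members of the higher library and a log2 ratio that differed from that of B cells by at least 1; for the states, the 10 largest and 10 smallest ratios held in both libraries, from which the text names some. Some list members are counted in sums but their own values are not reported here. Upstream bases came from RefSeq (GRCm38.p6) and gene positions from GENCODE (GRCm38). The comparison was tested on simulated data over 1872 genes, against 4881 genes in the comparison itself. In the simulation 100 of 100 genes raised 4-fold and 100 of 100 lowered were recovered, and 0 of 1672 unchanged genes were called. A 4-fold change lies past the limit of 2 times, so the simulation cannot show how changes near that limit are called. Calls for genes with most of their UMIs in 1 cell were not tested. Python 3.11.15, numpy 2.4.6, scipy 1.17.1, pandas 2.3.3, scanpy 1.11.5 and matplotlib 3.10.9 were used. Alternatives changed the limits of the rule, the thinning depth, the scale and the level floor.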

Additional observations from a re-analysis of the deposited data

How the results depend on the processing

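Of 136 values under alternatives 85 moved by less than the counting interval, or, for counts of genes, by less than 1.5 times, and 51 moved further. Between the libraries, the CD8 share of T cells changed order under 1 of 9 alternatives, the 5% mitochondrial limit, and higher genes outnumbered lower ones (494 and 343) under every alternative run except division by the median ratio (356 and 430). The ratio of the effector list stayed between 0.303 and 0.499 and that of the naive list between 1.04 and 1.84. The alternatives that kept only members with a Cd8b1 UMI (153 and 92) or left out cycling members were chosen after seeing the data. A 5% mitochondrial limit left 30 normal and 10 fibrosis members: 1.62% and 0.587% of kept cells, 38.5% and 28.6% of T cells, 3.33% and 10.0% naive-state, 83.3% and 70.0% effector-state, list ratios of 0.303 (effector) and 1.84 (naive), and 1859 higher and 608 lower genes. With only Cd8b1 members, shares were 2.05% and 1.5003% of kept cells and 22.4% and 33.8% of T cells, with 23.7% naive-state and 47.4% effector-state in normal and list ratios of 0.480 and 1.04. The rule on cells thinned to 1000 UMIs (82 and 28 members) gave 1.10% and 0.489%, 22.2% and 30.1%, ratios of 0.336 and 1.43, and 1007 higher and 609 lower genes. Without gamma-delta RNA the shares were 2.28% of normal kept cells and 24.9% and 35.3% of T cells, with ratios of 0.494 and 1.06. At least 2 Cd8 UMIs gave 2.48% of kept cells and 27.0% of T cells in normal and ratios of 0.432 and 1.24, and at least 3 Cd3 UMIs gave 1.44% of kept cells in fibrosis. Naive-state cells at a lower thinning depth were 10.2% and 14.2%, and effector-state cells without thinning 36.0% and 22.1%. The effector ratio was 0.372 per cell, 0.440 as a mean over cells, 0.411 without cycling members and 0.499 without Ccl5, and the naive ratio 1.10 per cell. A floor of 1 UMI per 10000 gave 230 higher and 179 lower genes, and one of 3 UMIs gave 2017 and 1320. The cause of these shifts was not tested.

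No paired analysis was possible because each condition has 1 library and no test was run, and there was no replicate to leave out. Depth limits the fibrosis values: Ifng rested on 19 UMIs and Gzmb on 62, and genes below the floor were not compared.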
